A study of Mus musculus with 6 samples.

Results

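The 34 core autophagy genes described here were taken from a fixed list of gene symbols: the ULK kinase complex, the ATG proteins, the ATG8 family, the WIPI proteins, the cargo receptors, Vmp1 and Epg5. All 34 were found among the 40808 gene IDs of the count table, and all 34 had enough counts to be tested. The rule selects by gene name, and the list was drawn up with earlier results of these data known. The study sequenced mRNA 3′ ends from mouse spleen, where the labels name leukaemia cells of bone marrow transplanted animals as what the RNA was extracted from. The groups were 3 libraries labelled as without Dox (NO_DOX, replicates 4, 5 and 6) and 3 labelled as on Dox (ON_DOX, replicates 10, 11 and 12). The labels do not spell out Dox, and they give no dose, duration, genotype, strain, sex or age, nor the gene that Dox was meant to switch. The study's title concerns the control of NOTCH by UVRAG, a protein of autophagy and endosomes, together with ITCH and ESCRT.

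Macroautophagy encloses part of the cytoplasm in a double membrane, the phagophore, which closes into an autophagosome and fuses with the lysosome. The ULK kinase complex starts the process, ATG9A vesicles and the lipid transfer proteins ATG2 feed the growing membrane, and WIPI proteins bind the phosphoinositide PI3P that the VPS34 kinase makes there. A pair of ubiquitin-like conjugation reactions then attaches ATG8 proteins, of the LC3 and GABARAP subfamilies, to the membrane, where cargo receptors bind them. In lymphocytes and developing red cells, autophagy is known for the turnover of mitochondria and for survival under starvation.

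The transcription factors TFEB and TFE3, master regulators of lysosome and autophagy genes, bind DNA at a short palindrome, CACGTG, within a longer element, and MYC binds the same core. Promoters were therefore searched for it, and 3 of the 29 members with a RefSeq promoter entry (GRCm38.p6, 250 bases before to 50 after an annotated start) held it: Atg3, Atg5 and Atg7. By comparison, 8.09% of the 27025 genes with a promoter entry held CACGTG, which reads the same on both strands. The extended form TCACGTGA, which contains CACGTG, was found in Atg3 alone among the members and in 1.12% of all genes. The FOXO core GTAAACA, searched on both strands, was found in none of the 29 and in 4.05% of all genes. A match is a description of the letters and does not show binding. The 3 promoters with a match all belong to the conjugation enzymes, of which Atg12 and Atg16l1 had no promoter entry. So few matches are not read as a trait of that role. The 3 promoters are shown with CACGTG in capitals, beside that of Optn, the member with the largest change, which held none of these motifs. They lie at chr16:45158579-45158878 (Atg3, plus strand), chr10:44268089-44268388 (Atg5, plus), chr6:114670846-114671145 (Atg7, plus) and chr2:5064068-5064367 (Optn, minus).
Atg3: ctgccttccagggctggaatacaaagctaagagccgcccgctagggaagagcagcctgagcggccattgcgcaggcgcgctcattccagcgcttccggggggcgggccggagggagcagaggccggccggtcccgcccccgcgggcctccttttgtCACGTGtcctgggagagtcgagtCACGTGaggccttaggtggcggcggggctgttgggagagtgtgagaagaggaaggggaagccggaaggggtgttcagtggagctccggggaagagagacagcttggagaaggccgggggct
Atg5: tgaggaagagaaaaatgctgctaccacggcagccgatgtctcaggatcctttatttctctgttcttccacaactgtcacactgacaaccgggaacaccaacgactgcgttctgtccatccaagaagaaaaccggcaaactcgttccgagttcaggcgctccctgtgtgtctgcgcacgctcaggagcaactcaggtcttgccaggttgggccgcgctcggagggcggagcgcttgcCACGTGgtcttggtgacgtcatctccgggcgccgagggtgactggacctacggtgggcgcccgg
Atg7: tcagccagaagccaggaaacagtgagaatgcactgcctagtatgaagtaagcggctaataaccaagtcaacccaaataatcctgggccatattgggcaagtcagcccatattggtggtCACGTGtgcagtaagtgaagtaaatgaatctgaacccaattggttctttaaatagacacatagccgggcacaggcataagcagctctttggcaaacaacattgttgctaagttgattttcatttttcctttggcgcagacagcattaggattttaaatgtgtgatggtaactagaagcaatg
Optn: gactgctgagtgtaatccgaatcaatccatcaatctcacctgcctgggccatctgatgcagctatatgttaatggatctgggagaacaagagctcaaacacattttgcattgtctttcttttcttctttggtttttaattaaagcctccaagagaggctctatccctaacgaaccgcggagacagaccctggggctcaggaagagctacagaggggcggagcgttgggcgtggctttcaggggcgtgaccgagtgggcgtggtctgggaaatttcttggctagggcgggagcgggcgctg
The motif began 94 and 71 bases before the entry's start site in Atg3 and 14 bases before it in Atg5. In Atg7 it began 132 bases before an alternative start, which lies 27969 bases inside the annotated gene, so that window is not at the gene's outermost start. The Optn start site lies 282 bases inside its annotated gene, so the Optn window too is not at the outermost start.

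Depth and the make-up of the libraries set the frame for the values. Total counts ran from 5541486 to 8725767 per library, and single-library counts of a member ran from 5 (Atg9a) to 4292 (Tax1bp1). No pair of libraries agreed within counting noise (chi-square over genes at least 6.85 times its degrees of freedom), so none was taken for a second deposit of another. This does not show that the libraries came from separate animals, which the labels do not state, and p-values measure the spread between these libraries. Of 14 T cell markers, 12 were lower with Dox and 0 higher, and their summed level was 2774 to 3010 CPM (counts scaled to a library of a fixed size, after TMM factors) without Dox and 281 to 374 CPM with it. All 13 B cell markers were higher with Dox (summed level 42.1 to 51.4 and 2482 to 2622 CPM), as were all 12 neutrophil markers (53.9 to 70.9 and 2309 to 2447 CPM). Only Ly6g, of the neutrophil list, had 0 counts in every library of a group, that without Dox. The summed levels were 1.45 times as high with Dox for the macrophage and monocyte markers (812 to 947 and 1065 to 1379 CPM), 1.39 times for the erythroid markers and 1.45 times for the stromal and endothelial markers. Members of these lists went both ways: 5 of 14 macrophage and monocyte markers were higher and 3 lower, 6 of 13 erythroid markers higher and 2 lower, and 4 of 10 stromal and endothelial markers higher and 2 lower. The erythroid sum was mostly globin, with Hba-a1 higher (log2 fold change 0.95) and Hbb-bs lower (-1.23). Counts of 4 Y-linked genes summed to 545 to 801 per library without Dox and 0 with it, so that sex-linked expression, cell content and Dox cannot be told apart in these groups. In bulk samples, fewer cells of a type and less RNA per cell cannot be told apart either. The part of these differences in the values of the autophagy genes was not tested.

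Core autophagy genes changed in both directions, in a share close to that of all tested genes. The quasi-likelihood test of edgeR, adjusted over all genes it tested, called a gene at an adjusted p below 0.05. By that rule 14 of the 34 (41.2%) differed between the groups, against 45.6% of the 14110 genes tested. Of these, 8 were higher with Dox, where 23.6% of all tested genes were, and 6 were lower, where 22.1% were. Genes with both a call and an absolute log2 fold change of at least 1 numbered 10 of 34, against 38.6% of tested genes. For 19 of the 34 (55.9%) no library of one group lay in the range of the other, against 59.6% of tested genes. The median log2 fold change of the members was 0.12, with quartiles of -0.60 and 0.72, and that of all tested genes was 0.07, with quartiles of -0.95 and 1.16. The members' median changed sign without replicate 6 of the group without Dox (-0.03), without Dox replicate 11 (-0.10) and with no filter on low counts (-0.03), and was 0.44 with library size as the only scaling. The members' fold changes thus spanned -1.64 (Ulk1) to 2.48 (Optn), and their median absolute size was 0.66 against 1.06 for all tested genes. Left-out libraries lowered the number of called members to 10 without replicate 4, 5 or 6 of the group without Dox, when 30.6% to 31.8% of all tested genes were called. With a trend on transcript length removed, an alternative described below, 50% of the members were called. That compares with 43.9% of the genes then tested, and the members' median was 0.23.

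**Figure D1:**
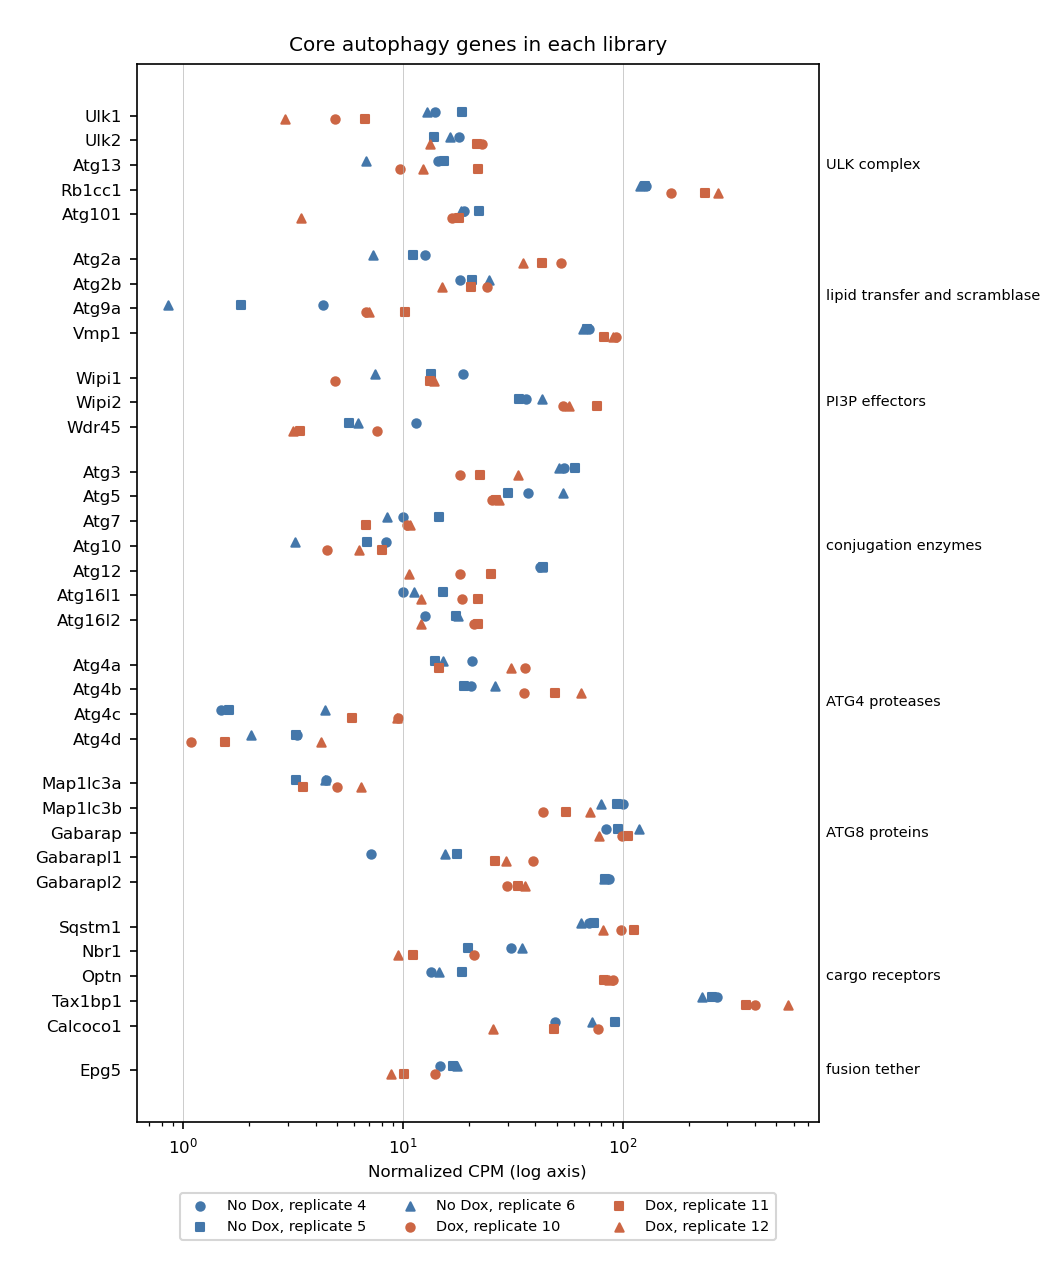
Level of each of the 34 core autophagy genes in each library, in normalized CPM on a log axis, with genes on the vertical axis grouped by role. Points of the 3 libraries without Dox are blue and those of the 3 with Dox are red. Optn, Atg2a and Gabarapl2 show groups that lie far apart, while Ulk2, Atg2b and Gabarap overlap.

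In the ULK complex, the kinase gene Ulk1 fell while the scaffold gene Rb1cc1 rose. Ulk1 (Entrez gene 22241, chr5:110784489-110810120) encodes the kinase that starts autophagosome formation. It had 14.0, 18.6 and 12.9 CPM without Dox (replicates 4, 5 and 6) and 4.90, 6.69 and 2.90 CPM with Dox (replicates 10, 11 and 12). Every Dox library was below every library without it, from 22 to 65 counts against 76 to 94. For Ulk1 the log2 fold change of -1.64 ± 0.43 (SE) had an edgeR adjusted p of 0.0109. Its call was lost without replicate 5 of the group without Dox (adjusted p = 0.0615), and at a threshold of 0.01. The related kinase gene Ulk2 was 18.1, 13.8 and 16.4 CPM without Dox and 23.0, 21.7 and 13.3 CPM with Dox. These ranges overlapped, and the log2 fold change of 0.26 ± 0.31 (SE) did not pass the threshold (adjusted p = 0.522).

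Rb1cc1 encodes FIP200, the large scaffold of the same complex, and was the second most abundant member by 3′ counts in both groups. Its level was 128, 126 and 120 CPM without Dox and 166, 237 and 273 CPM with it, a log2 fold change of 0.85 ± 0.20 (SE, with edgeR adjusted p = 0.00598). The libraries without Dox lay close together and all Dox libraries were higher. With a trend on transcript length removed, its log2 fold change was 0.28 (adjusted p = 0.251); its longest annotated transcript has 7607 bases. Atg13, the adaptor that links the kinase to FIP200, was 12.2 ± 4.7 CPM without Dox and 14.7 ± 6.4 CPM with it (SD, n = 3 each). Atg101, its binding partner, was 16.7 and 17.9 CPM in Dox replicates 10 and 11 and 3.43 CPM in replicate 12, against 18.3 to 22.1 CPM without Dox. Replicate 12 stood far below the other Dox libraries, and the Atg101 difference did not pass the threshold (-0.64 ± 0.51 as log2 fold change and SE, edgeR adjusted p = 0.34).

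Among the genes that supply membrane, Atg2a rose and its paralog Atg2b did not pass the test. ATG2A and ATG2B form bridges that carry lipid from the endoplasmic reticulum to the phagophore. Atg2a (Entrez gene 329015, chr19:6241478-6262304) was 12.5, 11.1 and 7.29 CPM without Dox and 52.4, 42.8 and 35.2 CPM with Dox. Each Dox library was higher than each library without Dox, and the log2 fold change was 2.07 ± 0.30 (SE, with edgeR adjusted p = 0.000359). Atg2b was 21.2 ± 3.3 CPM without Dox and 19.8 ± 4.6 CPM with it (SD, n = 3 each), with overlapping groups (adjusted p = 0.807). Atg9a encodes the lipid scramblase of the seed vesicles. It had 29, 9 and 5 counts without Dox and 50, 99 and 53 with it, and its groups did not overlap, but its log2 fold change of 1.76 ± 0.68 (SE) missed the threshold (adjusted p = 0.0583). Of the 15 alternatives that tested Atg9a, 4 called it, among them DESeq2 and the one without replicate 4 of the group without Dox. Vmp1, a scramblase of the endoplasmic reticulum, was 68.6 ± 2.3 CPM without Dox and 88.8 ± 5.8 CPM with it (SD over 3 libraries each; adjusted p = 0.092), again without overlap.

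Of the PI3P effectors, Wipi2 rose. WIPI2 recruits the conjugation machinery to the phagophore by binding ATG16L1. Its gene was 36.4, 33.6 and 42.7 CPM without Dox and 53.3, 76.2 and 56.8 CPM with it, and no Dox library fell within the range of the others. For Wipi2 the log2 fold change of 0.72 ± 0.22 (SE) had an edgeR adjusted p of 0.0205. The call was lost in 7 of 16 alternatives: without replicate 4, 5 or 6 of the group without Dox, without Dox replicate 11, with no filter on low counts, at a threshold of 0.01 and with the length trend removed. Its adjusted p ran up to 0.133 over all alternatives. Wipi1 (13.2 ± 5.7 and 10.7 ± 5.0 CPM) and the X-linked Wdr45, which encodes WIPI4 (7.81 ± 3.2 and 4.73 ± 2.5 CPM; SD, n = 3 per group), overlapped between the groups and did not pass the threshold.

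The conjugation enzymes attach ATG12 to ATG5 and then ATG8 proteins to lipid. ATG7 is the E1-like enzyme of both reactions, ATG10 and ATG3 are the E2-like enzymes, and ATG12, ATG5 and ATG16L1 form the complex that completes the second. Of the 7 genes, 2 fell (Atg3 and Atg12), 0 rose and 5 did not pass the threshold, against 22.1% of all tested genes lower and 23.6% higher. Their summed level was 174, 188 and 188 CPM without Dox and 117, 133 and 113 CPM with it, lower in each Dox library than in any without Dox. The difference of the log2 sums was -0.61, and ran from -0.70 to -0.30 over the scaling and left-out-library alternatives.

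Atg3 (Entrez gene 67841, chr16:45158829-45188538), the gene whose promoter held CACGTG at 2 positions, was 54.2, 60.4 and 51.2 CPM without Dox. With Dox it was 18.2, 22.4 and 33.3 CPM, below the other group in every library. For Atg3 the log2 fold change of -1.16 ± 0.26 (SE) had an edgeR adjusted p of 0.00464. Atg12, the ubiquitin-like protein joined to ATG5, was 42.1, 43.4 and 42.7 CPM without Dox and 18.2, 25.1 and 10.7 CPM with it. The first group spread little and the second varied 2.35-fold, with no overlap (-1.24 ± 0.31 as log2 fold change and SE, edgeR adjusted p = 0.00855). Both kept direction and call in all 16 alternatives, with adjusted p up to 0.0457 for Atg3 and 0.0367 for Atg12. With the length trend removed, the log2 fold change of Atg3 was -0.74 (adjusted p = 0.0457). The other genes with the motif did not pass the threshold. Atg5 was 37.0, 30.0 and 53.4 CPM without Dox and 25.4, 26.5 and 27.3 CPM with it (adjusted p = 0.0816), and Atg7 had a log2 fold change of -0.24 ± 0.40 (SE; adjusted p = 0.657). Atg10 differed least of all members, at 6.16 ± 2.6 and 6.28 ± 1.8 CPM. Atg16l1 and its paralog Atg16l2 overlapped between the groups, with log2 fold changes of 0.54 ± 0.35 and 0.21 ± 0.33 (SE).

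The ATG4 proteases trim new ATG8 proteins before conjugation and release them from membranes afterwards. Of the 4 genes, Atg4b and Atg4c rose and 0 fell, a share of 50% called against 45.6% of all tested genes. Atg4b, which encodes the most active of these proteases, was 20.4, 19.1 and 26.1 CPM without Dox and 35.4, 49.1 and 64.4 CPM with it. No library of one group lay within the range of the other (1.18 ± 0.27 as log2 fold change and SE, edgeR adjusted p = 0.00588). Atg4c had 10, 8 and 26 counts without Dox, or 1.49, 1.62 and 4.41 CPM, and 70, 57 and 71 counts with Dox, or 9.53, 5.87 and 9.36 CPM. At these low counts its log2 fold change of 1.71 ± 0.63 (SE) passed narrowly (adjusted p = 0.0482), and 8 of the 15 alternatives that tested it lost the call, among them those without replicate 4 or 5 of the group without Dox and without Dox replicate 10 or 12 (adjusted p up to 0.175). The X-linked Atg4a was 35.8, 14.6 and 31.1 CPM with Dox, with replicate 11 in the range of the group without Dox (14.0 to 20.6 CPM). Atg4d had 8 to 32 counts per library and overlapped between the groups.

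**Figure D2:**
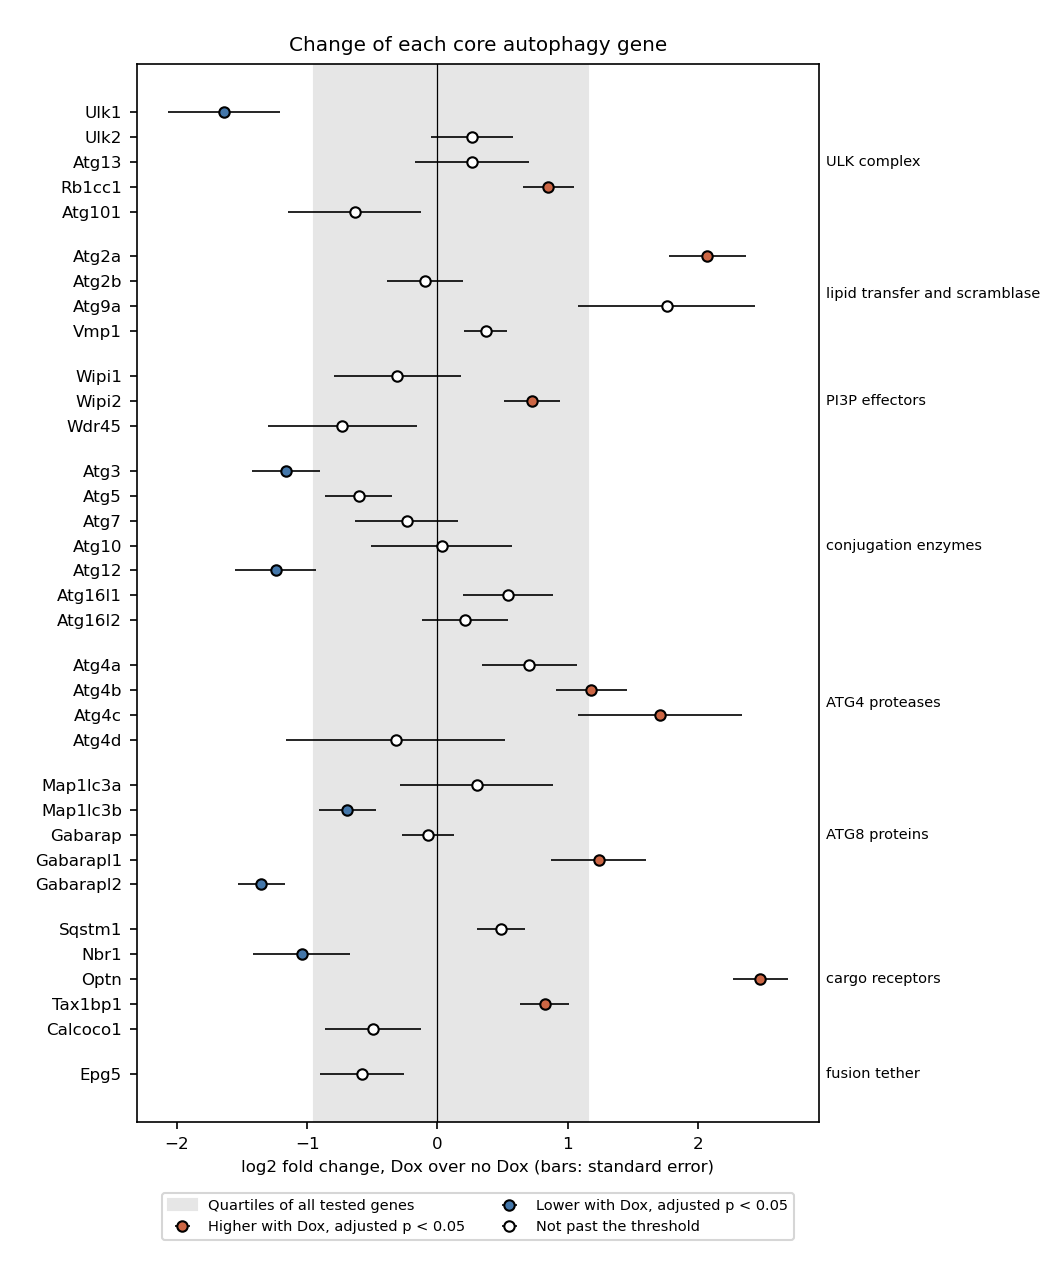
The log2 fold change of each of the 34 genes, Dox over no Dox, with its standard error as a bar and genes grouped by role on the vertical axis. Filled points passed an adjusted p-value of 0.05 (red higher, blue lower), open points did not, and the grey band runs from the lower to the upper quartile of all tested genes (-0.95 to 1.16). Optn and Atg2a lie beyond the band to the right, and Ulk1 and Gabarapl2 beyond it to the left.

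ATG8-family genes moved apart: Gabarapl1 rose, Gabarapl2 and Map1lc3b fell, and Gabarap and Map1lc3a did not pass the test. That is 60% called, against 45.6% of all tested genes. The encoded proteins coat the phagophore and autophagosome and are the docking sites of cargo receptors, and LC3B is the usual marker of autophagosomes. Gabarapl2 (Entrez gene 93739, chr8:111940703-111952915), which encodes GATE-16, was 86.8, 83.1 and 82.2 CPM without Dox and 29.7, 33.2 and 35.8 CPM with it. Both groups were tight and far apart (-1.35 ± 0.18 as log2 fold change and SE, edgeR adjusted p = 0.000228). Map1lc3b was 101, 94.0 and 79.5 CPM without Dox and 43.4, 55.0 and 71.3 CPM with it. All Dox libraries were lower, replicate 12 by the smallest margin (-0.69 ± 0.22 as log2 fold change and SE, edgeR adjusted p = 0.0263). This call did not hold in 6 of 16 alternatives, among them 4 of the 6 that left out a library: replicate 4 or 5 without Dox, or replicate 10 or 11 with Dox.

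Gabarapl1 went the other way. Its gene (Entrez gene 57436, chr6:129533192-129542331) was 7.16, 17.6 and 15.6 CPM without Dox and 39.2, 26.2 and 29.4 CPM with it. Replicate 4 was the lowest of the group without Dox, and every Dox library was higher than all 3 (1.24 ± 0.36 as log2 fold change and SE, edgeR adjusted p = 0.0187). The call was lost at a threshold of 0.01, without replicate 4 or 6 of the group without Dox and without Dox replicate 10, with adjusted p-values up to 0.0806. Gabarap was 83.6, 95.2 and 119 CPM without Dox and 99.3, 106 and 78.0 CPM with it, and these ranges overlapped (-0.07 ± 0.20 as log2 fold change and SE, edgeR adjusted p = 0.793). Map1lc3a, the LC3A gene, had 16 to 49 counts per library: 4.48, 3.24 and 4.41 CPM without Dox and 5.04, 3.50 and 6.46 CPM with it, which overlapped.

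ATG8 transcripts other than Map1lc3b are short, and the groups differed in a trend with transcript length. By a smooth fit over 11992 tested genes, the Dox libraries stood 1.05 lower on the log2 scale at 1000 bases, a fitted difference of -1.05, and 0.39 higher at 6000 bases. With this trend removed, an alternative chosen after seeing the data, Gabarap (longest transcript 1351 bases) was higher with Dox (log2 fold change 0.72, adjusted p = 0.0114). Gabarapl1 (1820 bases) and Gabarapl2 (1677 bases) kept their directions and calls, at 1.77 and -0.74. Map1lc3b (4138 bases) kept a log2 fold change of -0.77 (adjusted p = 0.0149). What gives rise to the trend was not tested.

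The make-up of the ATG8 counts was described by shares, with no test. Because these libraries read 1 position near the 3′ end of a transcript, counts of different genes were compared without dividing by length. Gabarapl2 supplied 30.7%, 28.3% and 27.3% of ATG8-family counts without Dox and 13.7%, 14.8% and 16.2% with Dox. Gabarapl1 supplied 2.53%, 6.01% and 5.18% without Dox and 18.1%, 11.7% and 13.3% with it. For both genes the groups lay apart, and these shares do not depend on how libraries are scaled. The shares of Map1lc3b (31.4% ± 4.6 and 25.6% ± 6.2) and Gabarap (33.9% ± 5.2 and 42.8% ± 6.6; SD, n = 3 per group) overlapped. The summed level of the family was 283, 293 and 301 CPM without Dox and 217, 224 and 221 CPM with it. Unlike the shares, this sum depends on scaling. The difference of its log2 values was -0.406, and ran from -0.474 to -0.095 over the scaling and left-out-library alternatives.

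**Figure D3:**
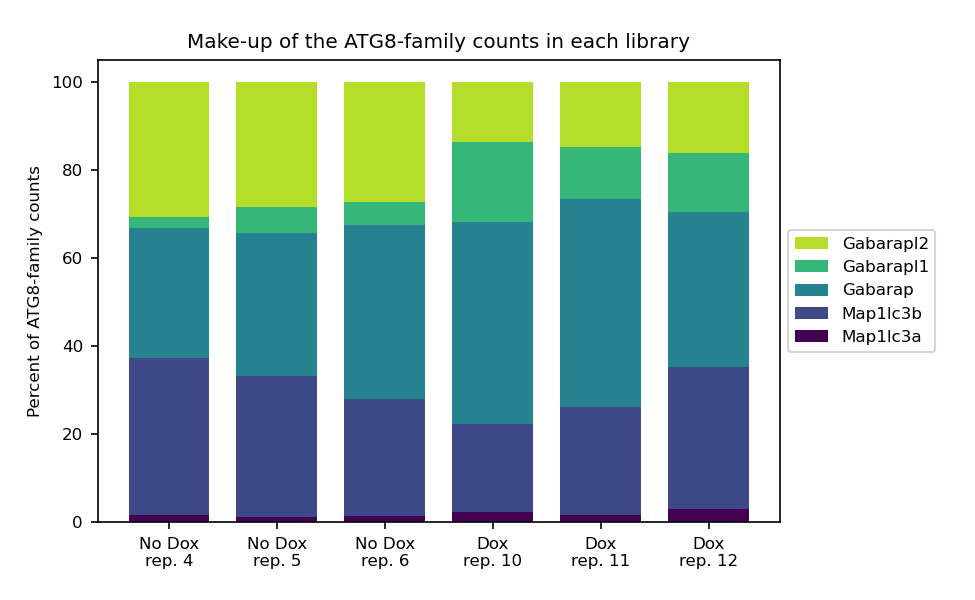
Percent of all ATG8-family counts that each of the 5 genes supplied, as stacked bars with 1 bar for each library. The Gabarapl2 segment covers 27.3% to 30.7% of the bars without Dox and 13.7% to 16.2% of those with Dox, while the Gabarapl1 segment is wider with Dox.

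Cargo receptors tether ubiquitinated or damaged cargo to ATG8 proteins. Of the 5 genes, Optn and Tax1bp1 rose, Nbr1 fell, and Sqstm1 and Calcoco1 did not pass the threshold, a share of 60% called against 45.6% of all tested genes. Optn encodes optineurin, a receptor for damaged mitochondria and bacteria that also binds ubiquitin chains in NF-κB signalling. Optn (Entrez gene 71648, chr2:5020521-5064399) was 13.4, 18.6 and 14.6 CPM without Dox and 90.1, 82.5 and 87.0 CPM with it. The Dox libraries lay close together and stood far above the others, from 660 to 802 counts against 86 to 92. For Optn the log2 fold change of 2.48 ± 0.21 (SE) had an edgeR adjusted p of 1.53e-05, and ran from 2.34 to 2.79 over 16 alternatives. In the order of the members by level, Optn stood at place 21 of 34 without Dox and at place 6 with it.

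Tax1bp1, a receptor for protein aggregates and a brake on NF-κB signalling, had the highest 3′ count level of the members in both groups. It was 268, 255 and 230 CPM without Dox and 401, 364 and 566 CPM with it, without overlap (0.82 ± 0.19 as log2 fold change and SE, edgeR adjusted p = 0.00571). Its call was lost only without replicate 6 of the group without Dox (adjusted p = 0.0533). Nbr1, a receptor for ubiquitinated aggregates and peroxisomes, was 31.0, 19.9 and 34.8 CPM without Dox and 21.1, 11.1 and 9.49 CPM with it. Replicate 5 without Dox lay below replicate 10 with Dox, and the log2 fold change of -1.04 ± 0.37 (SE) passed narrowly (adjusted p = 0.0426). The call of Nbr1 was lost in 8 of 16 alternatives, among them those without replicate 4 or 6 without Dox and without replicate 11 or 12 with Dox.

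Sqstm1 encodes p62, the receptor whose protein is degraded by autophagy. Its mRNA was 70.1, 74.2 and 64.4 CPM without Dox and 98.7, 112 and 81.2 CPM with Dox, higher in each Dox library. The log2 fold change of 0.49 ± 0.19 (SE) missed the threshold (adjusted p = 0.0548), and 5 of 16 alternatives called it. Calcoco1, an endoplasmic reticulum receptor, ran from 25.7 CPM in Dox replicate 12 to 92.2 CPM in replicate 5 without Dox, with overlap. Epg5, a tether for fusion of autophagosomes with lysosomes, was 14.8, 16.8 and 17.6 CPM without Dox and 14.0, 10.1 and 8.83 CPM with it (log2 fold change -0.58, adjusted p = 0.172). With the length trend removed, the log2 fold change of Epg5 was -1.32 (adjusted p = 0.00948), and Sqstm1, Vmp1 and Atg4a also passed the threshold, at 0.71, 0.57 and 1.08. The summed level of the 5 receptors was 416 to 459 CPM without Dox and 619 to 769 CPM with it. Its largest part was Tax1bp1, with group means of 250.7 and 443.3 CPM. The means of Optn (15.55 and 86.54 CPM) and Sqstm1 (69.58 and 97.45 CPM) were also higher with Dox. Those of Nbr1 (28.55 and 13.9 CPM) and Calcoco1 (71.34 and 50.58 CPM) were lower.

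The ratio of one gene to another was described for 6 pairs of related genes. The log2 ratio was taken from the counts within each library, after 2 was added to each count. It uses no scaling factors, but the added 2 weighs more where counts are low. The pairs were chosen after their values were seen, so no test is given and nothing particular to these pairs is read from them. Gabarapl1 over Gabarapl2 was -3.55, -2.21 and -2.37 without Dox and 0.40, -0.34 and -0.28 with it, so the genes came close to equal counts only with Dox. Atg2a over Atg2b went from -1.04 ± 0.61 to 1.13 ± 0.08, and Ulk1 over Ulk2 from -0.09 ± 0.45 to -1.98 ± 0.27 (SD, n = 3 each). The ratio changed 6.21-fold, 4.49-fold and 3.70-fold in these 3 pairs. Map1lc3b over Map1lc3a was lower with Dox (4.39 ± 0.31 and 3.45 ± 0.43), and Atg16l1 over Atg16l2 was higher by a small amount (-0.39 ± 0.24 and -0.06 ± 0.10). Atg4b over Atg4a was 0.40 ± 0.39 and 0.92 ± 0.88 (SD, n = 3 each), with overlap between the groups.

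**Figure D4:**
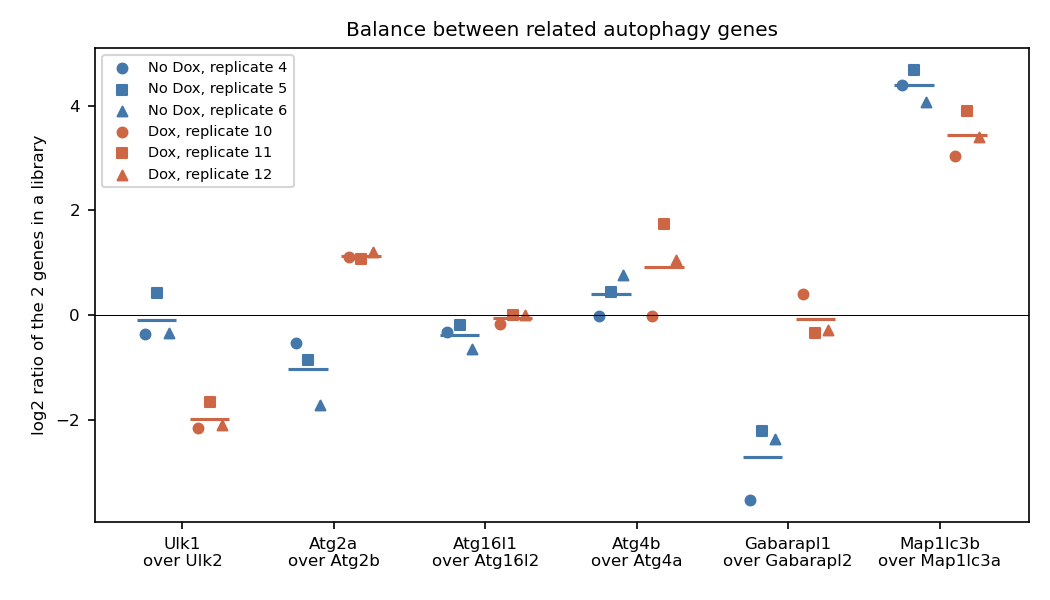
The log2 ratio of counts of 2 related genes in each library, for 6 pairs along the horizontal axis, with points for single libraries (blue without Dox, red with Dox) and lines for group means. The groups lie furthest apart for Gabarapl1 over Gabarapl2, and overlap for Atg4b over Atg4a.

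Spread between libraries was larger with Dox. The SD of log2 CPM was larger among the Dox libraries for 24 of the 34 members (70.6%), much as for all tested genes (72.1%), and its median over members was 0.27 without Dox and 0.39 with it. Optn and Atg5 were among the exceptions. The ratio of highest to lowest CPM was 1.09 with Dox and 1.39 without for Optn, and 1.07 and 1.78 for Atg5. Atg101 (5.23) and Atg4d (3.87) had the largest such ratios among the Dox libraries. Dox replicate 12 was the lowest of its group for 14 of the 34 members, replicate 10 for 12 and replicate 11 for 8; over all tested genes these libraries were the lowest for 34.3%, 33.2% and 32.6%.

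Reads were assigned to genes by the authors, and neighbours at the 3′ end can share them. In the last 500 bases of their annotated transcripts, 8 members overlapped an exon of another gene in GENCODE M21, of the same build. The strand setting of the count is not given in the sources used here. Map1lc3b overlapped Zcchc14 on the opposite strand (9 to 21 counts without Dox and 28 to 115 with it, against 319 to 674 for Map1lc3b). Sqstm1 overlapped Mrnip on the opposite strand (18 to 105 counts, against 366 to 1093 for Sqstm1). For the other 6 (Rb1cc1, Atg9a, Vmp1, Wdr45, Gabarapl1 and Tax1bp1) the overlapping gene was not in the count table or had at most 2 counts in a library.

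The other genes of the pathway, a list of 62 that act around these 34, also changed in both directions. Of the 60 tested, 32 were called (53.3%, against 45.6% of all tested genes), 17 higher and 15 lower. Their median was 0.04 on the log2 scale. The call count was 21, 20 and 21 when replicates 4, 5 and 6 of the group without Dox were left out in turn, when 31.2%, 30.6% and 31.8% of all tested genes were called. Without single Dox libraries it was 28 to 32, when 41.3% to 47.5% of all tested genes were called. Among the 6 transcription regulators, 3 were higher and 0 lower, against 23.6% higher and 22.1% lower of all tested genes, and the call of Tfeb, 1 of the 3, did not hold throughout. Tfeb was 1.19, 1.62 and 1.53 CPM without Dox and 2.59, 12.1 and 11.7 CPM with it, from 8 to 9 and 19 to 118 counts. Replicate 10 was thus near the other group (2.60 ± 0.72 as log2 fold change and SE, edgeR adjusted p = 0.0144), and 5 of the 15 alternatives that tested Tfeb lost the call, among them those without replicate 4, 5 or 6 of the group without Dox (adjusted p up to 0.0661) and limma-voom (0.122). Tfe3 (5.20 ± 0.71 and 23.5 ± 8.1 CPM, SD, n = 3 each; adjusted p = 0.000924) and Foxo1, another transcription factor of autophagy genes (26.3 ± 3.3 and 84.7 ± 12 CPM, adjusted p = 0.000134), rose without overlap.

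Of the 13 genes of the fusion machinery, the role with the most genes in this list, 7 were higher and 2 lower, against 23.6% and 22.1% of all tested genes. Vamp8, the SNARE of the lysosome and late endosome, rose by 1.85 ± 0.25 (SE) on the log2 scale (adjusted p = 0.000251), and Plekhm1, an adaptor that joins RAB7 to the HOPS tether, by 1.72 ± 0.41 (SE; adjusted p = 0.00652). The genes beyond the naming rule given here and in the next paragraph were chosen after their values were seen, and their calls were not followed through the alternatives. HOPS tether subunits Vps11, Vps16, Vps33a, Vps39 and Vps41 also passed the test upwards (log2 fold changes of 1.04 to 1.68), and Vps18 did not pass. Snap29 and Rab7, in the same list, fell (log2 fold changes of -1.15 and -0.85). In the VPS34 kinase complexes, 2 were higher and 2 lower of 8, or 50% called against 45.6% of all tested genes. Pik3c3, the catalytic subunit, was 247 ± 23 CPM without Dox and 55.4 ± 24 CPM with it (SD, n = 3 each; -2.16 ± 0.29 as log2 fold change and SE, edgeR adjusted p = 0.00024), while Uvrag rose by 0.74 ± 0.24 (SE; adjusted p = 0.0281), a call lost in 8 of 16 alternatives, among them those without replicate 4, 5 or 6 of the group without Dox and without Dox replicate 10 or 11 (adjusted p up to 0.164). Rubcn, an inhibitor of the kinase, was the other gene higher (log2 fold change 1.26), and Ambra1, a scaffold, the other gene lower (-1.28).

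In the mTORC1 and TSC group, which restrains autophagy or controls that restraint, 3 of 9 genes were lower and 1 was higher, against 22.1% and 23.6% of all tested genes. Rheb, the GTPase that activates mTORC1, was 79.5 ± 8.4 CPM without Dox and 22.8 ± 4.7 CPM with it (SD over 3 libraries each; adjusted p = 0.000131), and Mtor and Deptor, an inhibitor of the kinase, were also lower (log2 fold changes of -1.31 and -0.90). Tsc1, which restrains Rheb, was the gene that was higher (adjusted p = 0.0276). Phb2, an inner mitochondrial membrane protein that can bind LC3, went from 180 ± 8.9 to 41.5 ± 4.1 CPM (SD over 3 libraries each; adjusted p = 1e-05). Of 7 tested mitophagy genes, Phb2 among them, 1 was higher and 3 lower (57.1% called). Of 9 receptors of the endoplasmic reticulum and other cargo, 2 were higher and 3 lower (55.6% called). Of all tested genes, 45.6% were called. Bnip3l, a mitophagy receptor of maturing red cells, was higher (log2 fold change 0.79), as were Retreg1, a receptor for endoplasmic reticulum (1.42), and Wdfy3, an adaptor for aggregates (1.13). Fkbp8, Sec62 and Ncoa4 were lower (-0.70, -0.91 and -0.96). By the naming rule, Fundc1 fell by 1.33 ± 0.36 (SE) and Rtn3 fell by 1.35 ± 0.20 (SE) on the log2 scale (adjusted p of 0.0134 and 0.000477). The call of Fundc1 was lost at a threshold of 0.01 and with the length trend removed. Those of Pik3c3, Tfe3, Vamp8, Foxo1, Phb2, Rheb and Rtn3 held in all 16 alternatives, and so did that of Plekhm1.

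**Figure D5:**
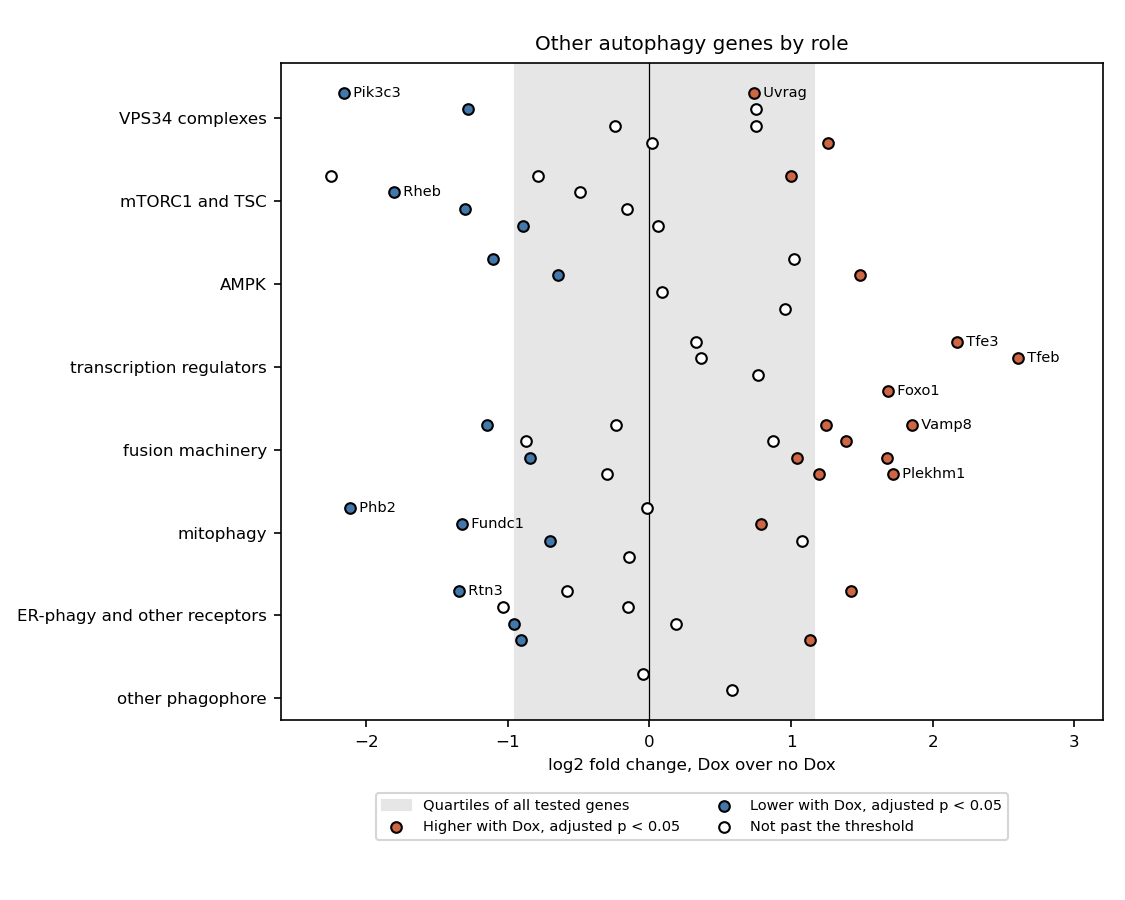
The log2 fold change, Dox over no Dox, of the 60 tested genes that act around the core autophagy genes, by role on the vertical axis (points are offset for legibility). Filled points passed an adjusted p-value of 0.05 and the grey band runs from the lower to the upper quartile of all tested genes. Tfeb, Tfe3 and Foxo1 lie to the right of the band, and Pik3c3, Phb2 and Rheb to its left.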

How the data were processed

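Libraries were 3′ mRNA-seq (QuantSeq FWD, per the labels' protocols), 3 per group. The authors deposited raw counts per Entrez gene; STAR, featureCounts and GRCm38 are named in the submitters' processing notes, with no version, and the strand setting is not given in the sources used here. Gene symbols and positions came from a RefSeq table (GRCm38.p6), which matched 96.5% of the 40808 IDs. Low-count genes were removed by filterByExpr (count 10, total 15 as its minimums), libraries were scaled by TMM, and genes were tested with edgeR 4.0.16 (quasi-likelihood, all 6 libraries, group as the only term; R 4.3.3), with Benjamini-Hochberg adjustment over 14110 genes. Standard errors are the absolute log2 fold change over the square root of F. A gene at 3 counts would have 0.344 to 0.541 CPM. The code was tested on simulated data. Alternatives changed the scaling, the filter, the gene set, the threshold (0.01) or the tool (DESeq2 1.42.0, limma-voom 3.58.1), or left out 1 library. Removal of a transcript length trend (GENCODE M21; 85% of tested genes) was chosen after seeing the data. The members and gene lists were chosen with earlier results of these data known. All members are named, and of the other autophagy genes Uvrag, Pik3c3 and the 5 called genes with the largest change in each direction (mean at least 5 CPM).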

Additional observations from a re-analysis of the deposited data

How the results depend on the processing

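Of the 14 called members, Atg2a, Atg3, Atg12, Atg4b, Gabarapl2 and Optn kept direction and call in each alternative that tested them, and the other 8 lost the call in at least 1. None changed direction while called in both. At a threshold of 0.01 there were 8 called core genes and 15 called other autophagy genes, when 31.2% of all tested genes were called. Leaving out 1 library at a time gave 20 to 32 called other autophagy genes, when 30.6% to 47.5% of all tested genes were called. Directions that changed all belonged to members without a call under the edgeR test as designed. With library size as the only scaling, which moved the median of all genes by 0.31 on the log2 scale and gave 64.3% of calls as higher (51.6% with TMM), Atg2b was 0.215, Wipi1 0.008, Atg7 0.077 and Gabarap 0.237. Upper quartile scaling gave 0.002 for Atg2b and 0.027 for Gabarap. Atg10 was -0.133 with no filter, and with at least 10 counts in every library Atg2b was 0.021 and Gabarap 0.047. With the length trend removed, Ulk2 was -0.087, Atg101 0.189, Atg16l2 -0.223 and Gabarap 0.718, the last of them then called. Over left-out libraries, Atg13 ran from -0.172 to 0.466, Atg10 from -0.373 to 0.265, Wipi1 from -0.693 to 0.008, Atg2b from -0.284 to 0.05 and Gabarap from -0.22 to 0.032. The causes were not tested. The summed level of the ATG8 family, lower with Dox by 0.41 on the log2 scale (a difference of -0.406), ran from -0.474 to -0.095 over the scaling and left-out-library alternatives. This sum was not recomputed with the length trend removed, so its direction there is not known. In that alternative Map1lc3a, Gabarap and Gabarapl1 had log2 fold changes of 1.27, 0.718 and 1.77, and Gabarapl2 and Map1lc3b had -0.744 and -0.774. No paired analysis was possible because no replicate number occurs in both groups. Depth limits the members with few counts: the lowest single-library counts were 5 for Atg9a, 8 for Atg4c and Atg4d, 16 for Map1lc3a, 19 for Atg10 and 22 for Ulk1.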

Other observations

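The 34 core autophagy genes supplied 0.118% ± 0.0036 of all counts without Dox and 0.182% ± 0.0049 with it (SD, n = 3 each). These percents rest on library size alone, a scaling that moved the median of all tested genes up by 0.31 on the log2 scale. After TMM factors the summed level of the members was 1300 to 1347 CPM without Dox and 1579 to 1747 CPM with it. The log2 ratio of these group means was 0.32. This sum is led by a few abundant genes, Tax1bp1 and Rb1cc1 above all, and it stood higher with Dox although the median member changed little.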
